A study of Homo sapiens with 6 samples.

Results

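The genes described here are the cytosine-5 methyltransferase genes DNMT1, DNMT3A, DNMT3B and TRDMT1, together with UHRF1, UHRF2 and HELLS. The products of UHRF1 and HELLS help the methyltransferases reach their DNA, and UHRF2 is a relative of UHRF1. The genes were chosen by symbol, and all 7 listed genes were found among the 60179 gene features of the table. All 7 passed the filter on low counts and were among the 17449 features tested.

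The libraries come from HEK293T, an established line of human embryonic kidney origin. All of the cells had received the plasmids pShP2419 and pStH1169 and were kept for 48 h with a photocaged serine, 4,5-dimethoxy-2-nitrobenzyl-L-serine (0.1 mM), whose blocking group light removes and which serves to make a light-activatable human TET2. TET2 oxidises 5-methylcytosine, the base that the methyltransferases make. The caged 0 h group received no light, and the uncaged 4 h and uncaged 8 h groups had 3 min on a 365 nm transilluminator followed by 4 h or 8 h in medium, with 2 libraries in each of the 3 groups and 500000 sorted transfected cells per library. Without a group that had light but no enzyme, or time but no light, the effects of light, washing, fresh medium, elapsed time and uncaged TET2 cannot be told apart. Whether the replicates were separate cultures is not stated in the labels. The p-values therefore cover the spread between these 6 libraries alone, and that spread may be technical. Both comparisons with caged cells share the caged libraries.

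DNA methylation in human cells is copied at each replication by DNMT1, which UHRF1 brings to newly made DNA by binding half-methylated CpG sites and by ubiquitinating histone H3. UHRF2 is the close relative of UHRF1. HELLS is a nucleosome remodeller of the SNF2 family that, with its partner CDCA7, opens packed chromatin to the methylation machinery. DNMT3A and DNMT3B place methyl groups on unmethylated DNA. TRDMT1, once named DNMT2, belongs to the family by sequence, but its main substrate is transfer RNA.

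The promoters of DNMT1, UHRF1 and HELLS are shown because these 3 of the 7 genes held a match to an E2F-type motif. Such a sequence is bound by the E2F factors, which regulate S-phase genes. RefSeq windows of GRCh38.p14, running from 250 bases before to 50 bases after each annotated start, were searched on both strands for the letters TTTCCCGC, TTTCGCGC, TTTGGCGC and TTTGCCGC. Some of these letters can overlap one another across strands. Capitals mark the matches in the following stretches, which begin 100 bases before the start and are given 5′ to 3′ on the strand of the gene.
DNMT1 (chr19:10194948-10195053, minus strand): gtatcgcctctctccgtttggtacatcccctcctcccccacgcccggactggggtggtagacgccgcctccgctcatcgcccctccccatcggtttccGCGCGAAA
UHRF1 (chr19:4909401-4909500, plus strand): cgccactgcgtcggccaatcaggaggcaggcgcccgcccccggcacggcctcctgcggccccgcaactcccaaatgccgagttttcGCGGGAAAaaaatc
HELLS (chr10:94545688-94545787, plus strand): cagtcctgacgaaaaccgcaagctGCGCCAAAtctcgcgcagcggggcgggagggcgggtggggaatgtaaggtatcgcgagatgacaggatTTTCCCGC
The DNMT1 match lies across the start, and its last 6 bases are past it. A further match stood in 1 of the other UHRF1 windows, between 160 and 153 bases before that start. The windows of DNMT3A, DNMT3B, TRDMT1 and UHRF2 held none of these letters, which says nothing about the factor. Of all 35116 windows of this length 3.31% held a match, and by gene 3.99% of 27305. Among S phase and G1/S genes 23 of the 43 with a window held one. The windows also differed in CpG, the site of the methylation these enzymes make. The DNMT3B window held 3 CpG dinucleotides, against 21 in that of TRDMT1, 30 in that of DNMT1 and 18 to 46 in those of DNMT3A. The median over all windows was 14. The only DNMT3B window ran from 32779602 to 32779901, inside the gene, which is annotated from 32762385. Motif and CpG at that first DNMT3B start were thus not examined. The windows of DNMT1, UHRF1 and HELLS also lay inside the annotated bounds of their genes. Which of the annotated starts these cells use was not measured.

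Libraries held 17490010 to 20025955 estimated counts, of which 11.5% to 15.5% were plasmid sequences. The plasmid share was 14.8% to 15.5% in the 4 libraries after light and 11.5% to 11.8% in caged cells. Its part in the results was not tested. The cell line's markers VIM (460 to 522 CPM), KRT18, KRT8, NEFM and PAX2 (4.41 to 6.88 CPM) were detected in all libraries. Of these 5, KRT18 was called lower at 8 h against caged cells (-0.23 ± 0.070, adjusted p = 0.0429), a call that held in 7 of 18 other fits (12 other settings and 6 fits without 1 library), and had an adjusted p of 0.0556 with a replicate block. PAX2 stood at -0.47 ± 0.17 (adjusted p = 0.0745), with both libraries at 8 h below both caged ones, and the part of these markers in the results was not tested. Of markers of other cells, CD3E was at 0 in all libraries, PTPRC and HBB had at most 1 count, PECAM1 at most 9, ALB stood at 1.04 to 2.03 CPM and COL1A1 at 16.9 to 19.7 CPM. Reads of the cells' own TET2 and of its plasmid copy were not separable, and the level assigned to TET2 was 3260 and 3294 CPM in caged cells, 4096 and 4047 CPM at 4 h and 4673 and 4410 CPM at 8 h. Over all features, 63.3% of the calls at 4 h, 53.0% of those at 8 h and 62.8% of those between them were higher. With library totals alone as the scale these shares were 44.7%, 29.03% and 35.4%, and the median of all features at 8 h moved to -0.11 on the log2 scale.

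Levels are given as normalised counts (CPM) scaled by TMM factors. Between genes, they were compared per kilobase of the longest coding transcript of GENCODE 29. On that scale HELLS stood highest in caged cells, at 110 ± 2.82 CPM per kb (SD, n = 2), followed by DNMT1 at 41.3 ± 1.59, UHRF2 at 31.0 ± 0.259 and UHRF1 at 25.7 ± 1.86 CPM per kb. DNMT3B followed at 10.7 ± 1.18 CPM per kb, and TRDMT1 and DNMT3A were lowest, at 4.71 ± 0.0513 and 4.57 ± 0.0116 CPM per kb. The order thus set HELLS, DNMT1, UHRF2 and UHRF1 above the de novo methyltransferase genes DNMT3B and DNMT3A. It depends on the length used. Per kilobase of all annotated exons UHRF1 stood at 21.5, UHRF2 at 10.8 and DNMT3B at 9.99 CPM per kb, so UHRF2 and DNMT3B were close. On that scale TRDMT1 stood at 1.58 against 3.61 for DNMT3A. In bulk RNA, fewer cells that express a gene and less RNA per cell cannot be told apart.

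At 8 h the genes fell into 2 directions. DNMT3A, DNMT3B and TRDMT1 were lower than in caged cells, and DNMT1 and UHRF1 were higher. UHRF2 and HELLS did not pass the test. In the quasi-likelihood test of edgeR, with p adjusted by Benjamini-Hochberg over all 17449 features and a threshold of 0.05, 5 of 7 genes were called, 2 higher and 3 lower, where 28.1% of all features were called, 14.9% higher and 13.2% lower. At 4 h UHRF1 was called higher and none of the 7 lower, where 9.72% of all features were called, 6.16% higher and 3.56% lower. Between 8 h and 4 h TRDMT1 was called lower and none of the 7 higher, where 3.27% of all features were called, 1.21% lower and 2.05% higher. A test for any difference among the 3 groups called DNMT3A, DNMT3B, TRDMT1 and UHRF1, where 24.8% of features were called, and DNMT1 missed it (adjusted p = 0.0541). The median log2 fold change of the 7 genes was 0.11 at 8 h, -0.041 at 4 h and -0.065 between 8 h and 4 h, where that of all features was -0.0046, -0.0061 and -0.0034.

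Whether the libraries of 2 groups overlap is given for each gene below, but groups that do not overlap were common in this table. At 4 h against caged cells 3 of 7 genes lay wholly higher and 2 wholly lower, where 56.9% of all features did not overlap, 28.6% higher and 28.3% lower. At 8 h against caged cells 4 lay wholly higher and 3 wholly lower, where 66.2% of all features did not overlap, 32.6% higher and 33.6% lower. Between 8 h and 4 h 1 lay wholly higher and 4 wholly lower, where 53.3% of all features did not overlap, 26.1% higher and 27.2% lower.

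**Figure D1:**
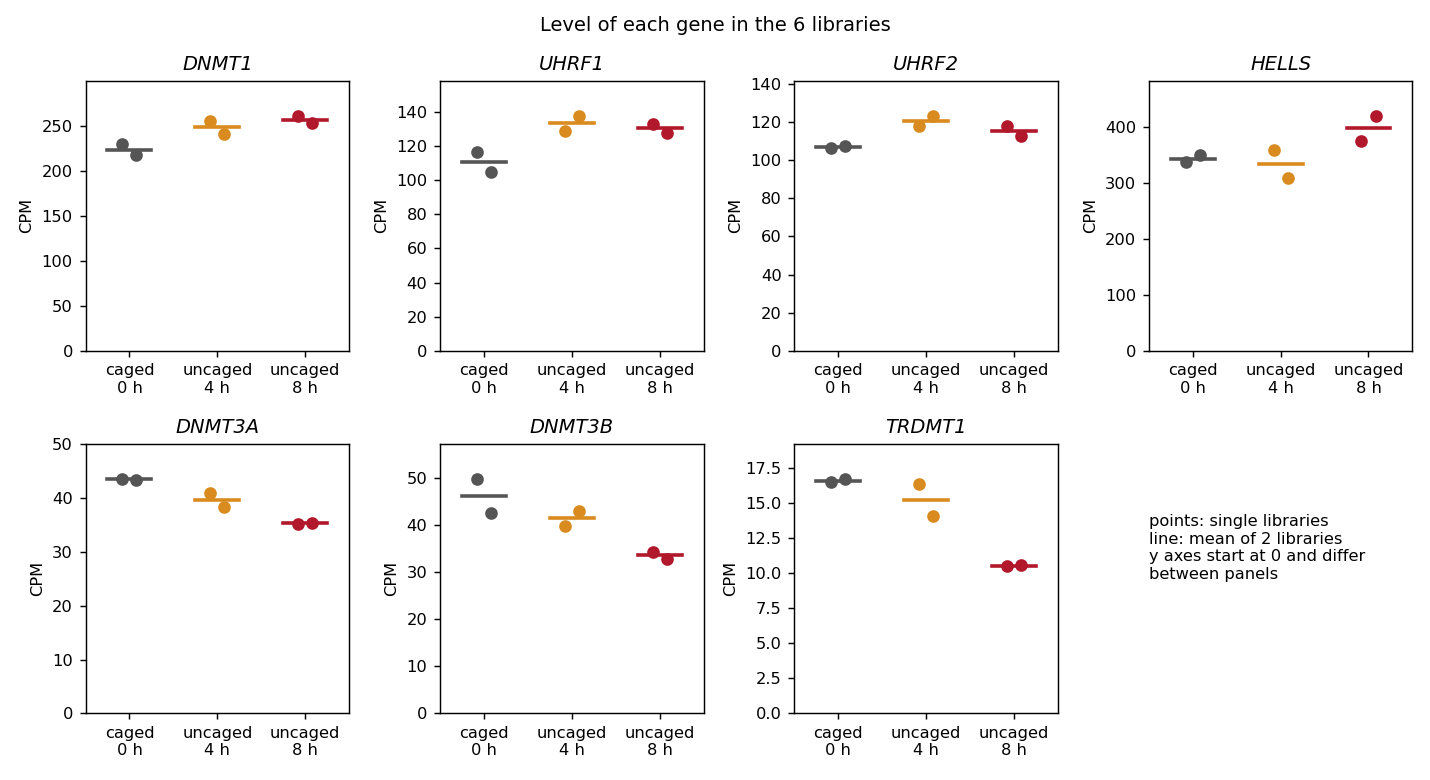
Level of each of the 7 genes (CPM, y axes starting at 0) in the caged 0 h, uncaged 4 h and uncaged 8 h libraries; points are single libraries and lines are means of 2. DNMT3A, DNMT3B and TRDMT1 stand lowest at 8 h, with both TRDMT1 libraries at 10.5 or 10.6 CPM, and both DNMT1 and UHRF1 libraries at each time after light lie above both caged ones.

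**Figure D2:**
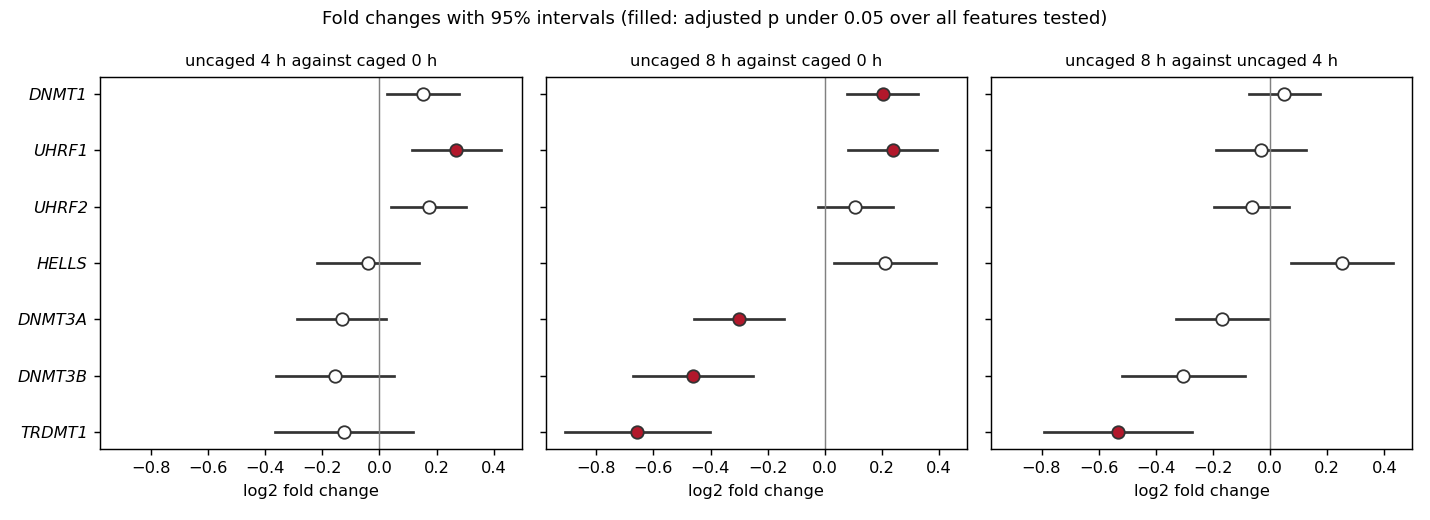
Log2 fold changes of the 7 genes (x axis) in the 3 comparisons, each the first-named group over the second, with 95% intervals; filled points passed an adjusted p of 0.05 over all features tested. At 8 h against caged cells, TRDMT1 at -0.66, DNMT3B at -0.46 and DNMT3A at -0.30 are lower and DNMT1 at 0.20 and UHRF1 at 0.24 are higher.

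At 8 h, against caged cells and against 4 h, TRDMT1 had the largest log2 fold change of the 7. The gene (ENSG00000107614.22, chromosome 10, 17142254 to 17202054 of GRCh38, minus strand) encodes a methyltransferase of transfer RNA cytosines. TRDMT1 had 16.5 and 16.7 CPM in caged cells, 16.4 and 14.1 CPM at 4 h and 10.5 and 10.6 CPM at 8 h, from 302 and 302, 249 and 213, and 152 and 151 estimated counts. Both libraries at 8 h lay well below all others, and at 4 h one library was close to the caged pair and the other lower. At 8 h against caged cells the log2 fold change was -0.66 ± 0.11 (SE, adjusted p = 0.00437), so the level fell by 36.6%. TRDMT1 fell at 8 h under each of 12 other settings (-0.76 to -0.48) and with each of the 6 libraries left out in turn (-0.67 to -0.65, adjusted p at most 0.0279). At 4 h it stood at -0.12 ± 0.11 against caged cells, and the 95% interval of -0.37 to 0.12 holds both a drop and a small rise. At 8 h against 4 h the log2 fold change was -0.53 ± 0.11 with an adjusted p of 0.0462, and 5.03% of all tested features had a lower value there. This call was lost in each of the 6 fits without 1 library (adjusted p = 0.0731 to 0.200) and in 6 of 12 other settings, and with a replicate block its adjusted p was 0.0752. Fractional estimates are a sign of reads shared with other features. Beyond a tolerance of 0.01, estimates were fractional in 6 libraries for HELLS, 5 each for DNMT1 and UHRF1, 4 for TRDMT1, 2 for UHRF2 and 0 for DNMT3A and DNMT3B.

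DNMT3B and DNMT3A encode the enzymes that set new methylation, and both fell at 8 h. DNMT3B (ENSG00000088305.18, chromosome 20, 32762385 to 32809356, plus strand) had 49.9 and 42.6 CPM in caged cells, 40.0 and 43.1 CPM at 4 h and 34.4 and 32.9 CPM at 8 h. The 8 h libraries did not overlap the others, whereas the 4 h and caged libraries did overlap. DNMT3B fell at 8 h against caged cells by 0.46 ± 0.092 on the log2 scale (adjusted p = 0.00843), and the level fell by 27.3%. That call held in 12 of 12 other settings (-0.56 to -0.41) and was lost without caged 0 h replicate 1, the higher of the caged libraries (-0.35, adjusted p = 0.0545). At 4 h DNMT3B stood at -0.16 ± 0.090 (adjusted p = 0.308), and at 8 h against 4 h it stood at -0.30 ± 0.094 (adjusted p = 0.106).

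DNMT3A (ENSG00000119772.16, chromosome 2, 25227855 to 25342590, minus strand) had 43.5 and 43.4 CPM in caged cells, 40.9 and 38.4 CPM at 4 h and 35.2 and 35.4 CPM at 8 h. The groups of 2 did not overlap, and each later group lay below the one before. Relative to caged cells it fell at 8 h by 0.30 ± 0.069 on the log2 scale (adjusted p = 0.0148), and the level fell by 18.7%. Without any one of the 4 compared libraries the value stayed between -0.31 and -0.30, but the adjusted p was 0.0575 to 0.0700. Length and GC offsets gave -0.19, with an adjusted p of 0.0635. The 4 h value of -0.13 ± 0.068 and the step of -0.17 ± 0.070 did not pass (adjusted p = 0.255 and 0.202). The regulatory relative DNMT3L, which has no catalytic activity, had at most 2 counts in any library and was not tested.

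DNMT1, the maintenance methyltransferase (ENSG00000130816.16, chromosome 19, 10133345 to 10231286, minus strand), was modestly higher after light. It had 230 and 217 CPM in caged cells, 256 and 241 CPM at 4 h and 261 and 253 CPM at 8 h. The caged libraries lay below all 4 others, and the 4 h and 8 h libraries overlapped. At 8 h DNMT1 rose by 0.20 ± 0.055 (adjusted p = 0.0262), which is 15.1%. The call was lost without any one of the 4 compared libraries (0.16 to 0.24, adjusted p = 0.0562 to 0.135), without a low-count filter and with library totals alone (0.098). Under cyclic loess offsets against abundance the value was 0.014 (adjusted p = 0.882). At 4 h DNMT1 stood at 0.15 ± 0.055 (adjusted p = 0.118). S1PR2, annotated on the same strand, shares 83 bases of exon with DNMT1 and had 67.4 to 202 estimated counts, against 3621 to 4204 for DNMT1.

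UHRF1, the ubiquitin ligase that guides DNMT1 (ENSG00000276043.5, chromosome 19, 4903080 to 4962154, plus strand), had 116 and 105 CPM in caged cells, 129 and 138 CPM at 4 h and 133 and 128 CPM at 8 h. Both caged libraries lay below the other 4. Against caged cells UHRF1 rose at both times, by 0.27 ± 0.069 at 4 h with an adjusted p of 0.0446 and by 0.24 ± 0.069 at 8 h with an adjusted p of 0.0341, and its step between them was -0.032 ± 0.069 (95% interval -0.19 to 0.13). The 4 h call was lost in all 6 fits without 1 library (adjusted p = 0.0613 to 0.270) and in 6 of 12 other settings. The 8 h call held in 1 of the 6 fits without a library, the one without caged 0 h replicate 1, and in 7 of 12 other settings. The direction against caged cells was the same throughout, from 0.12 to 0.34. With a replicate block the adjusted p was 0.0722 at 4 h and 0.0517 at 8 h.

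UHRF2 (ENSG00000147854.17, chromosome 9, 6413151 to 6507054, plus strand) had 106 and 108 CPM in caged cells, 118 and 123 CPM at 4 h and 118 and 113 CPM at 8 h. All 4 libraries after light lay above the caged ones. The log2 fold change was 0.17 ± 0.057 at 4 h (95% interval 0.041 to 0.30, adjusted p = 0.0983) and 0.11 ± 0.057 at 8 h (95% interval -0.024 to 0.24, adjusted p = 0.195). The 8 h interval holds both 0 and the UHRF1 value of 0.24.

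HELLS, the remodeller (ENSG00000119969.15, chromosome 10, 94501434 to 94613905, plus strand), varied most between replicates in absolute level. It had 337 and 349 CPM in caged cells, 358 and 309 CPM at 4 h and 375 and 419 CPM at 8 h. The 8 h libraries lay above all others, and at 4 h one library was above and one below the caged pair. The log2 fold change at 8 h against caged cells was 0.21 ± 0.078 (95% interval 0.032 to 0.39, adjusted p = 0.0760) and the step from 4 h was 0.25 ± 0.078 (adjusted p = 0.107). DESeq2 called both (adjusted p = 0.0374 and 0.0268), and so did a fit with length and GC offsets, whereas cyclic loess offsets gave -0.014 at 8 h. At 4 h HELLS stood at -0.041 ± 0.078, with a sign that turned without uncaged 4 h replicate 2 (0.052). AL138759.1, annotated on the same strand, shares 438 bases of exon with HELLS.

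Ratios of estimated counts within a library do not depend on how libraries are scaled. DNMT3A counts were 19.0% and 19.9% of DNMT1 counts in caged cells, 16.0% and 15.9% at 4 h and 13.5% and 14.0% at 8 h. DNMT3B counts were 21.7% and 19.6% of DNMT1 counts in caged cells, 15.6% and 17.9% at 4 h and 13.2% and 13.0% at 8 h. TRDMT1 counts were 7.18% and 7.70% of DNMT1 counts in caged cells, 6.41% and 5.85% at 4 h and 4.03% and 4.17% at 8 h. For all 3 ratios the groups did not overlap and stood in the order caged, 4 h, 8 h. All 3 share DNMT1 as denominator, which was itself called higher at 8 h, so they are not separate results. In CPM, DNMT3B overlapped between caged cells and 4 h. How often ratios of other features keep such an order was not examined. For HELLS over DNMT1 the caged and 8 h libraries overlapped (144% to 165%), with both 4 h libraries lower (128% and 140%). TRDMT1 over UHRF2 kept the order without overlap. Between the de novo genes the balance overlapped: DNMT3A counts were 87.2% and 102% of DNMT3B counts in caged cells, 102% and 89.1% at 4 h and 102% and 108% at 8 h. UHRF1 counts were 50.7% and 48.3% of those of DNMT1 in caged cells, 50.5% and 57.1% at 4 h and 51.0% and 50.4% at 8 h, so the groups of this ratio overlapped. UHRF2 counts were 91.5% and 103% of UHRF1 counts in caged cells, 91.5% and 89.5% at 4 h and 88.6% and 88.2% at 8 h. These ratios were not tested.

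**Figure D3:**
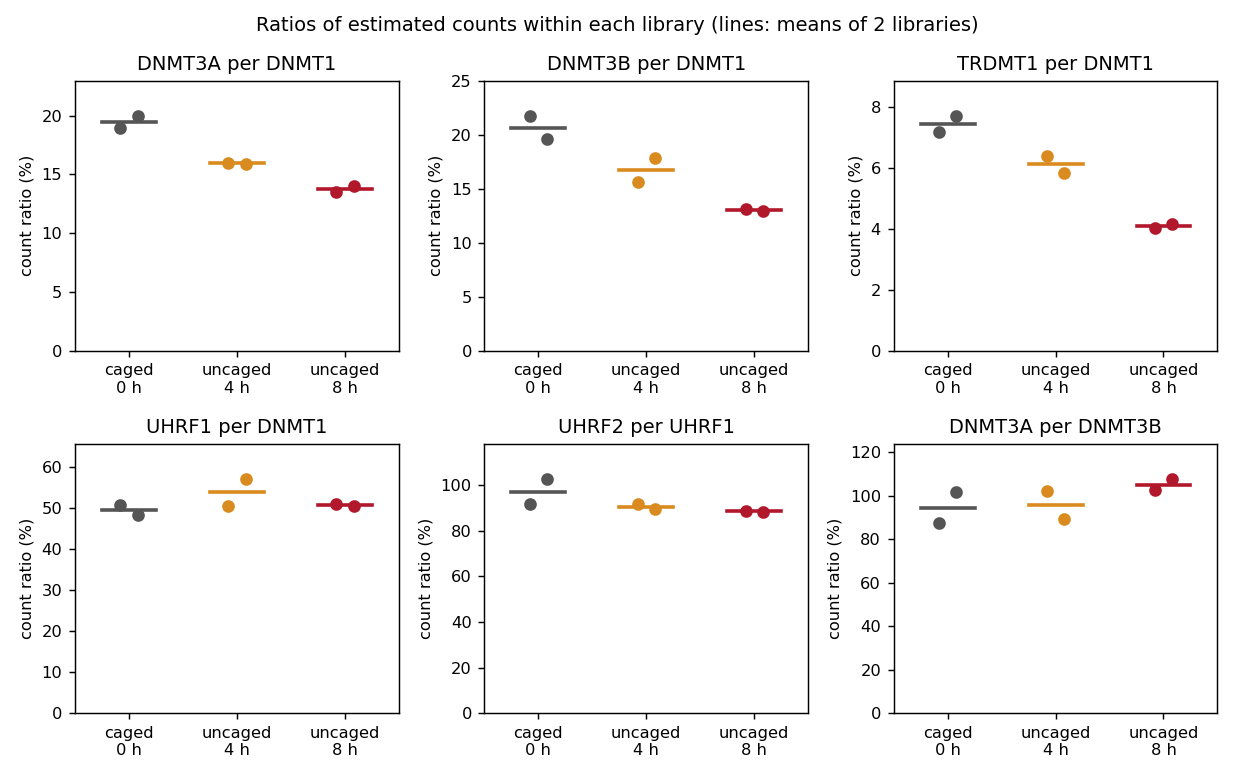
Ratios of estimated counts within each library (percent, y axes starting at 0) in the 3 groups; points are libraries and lines are means of 2. The ratios of DNMT3A, DNMT3B and TRDMT1 to DNMT1 step down at each time, to 13.0% or 13.2% for DNMT3B at 8 h, while the ratio of UHRF1 to DNMT1 overlaps between groups.

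The distance between the profiles of a pair of genes was measured as the root mean square difference of log2 CPM over the 6 libraries, each gene centred on its mean, with no test. Among the 7 genes DNMT1 lay nearest to UHRF2 (0.071) and UHRF1 (0.074), and DNMT3A to DNMT3B (0.11). TRDMT1 and HELLS were farthest apart (0.39). Among 10277 other features of at least 10 CPM, those nearest to TRDMT1 were CAMK1D (0.020), CNTNAP2 (0.053) and MED12L (0.054). CAMK1D lies on the same chromosome, from 12349482 to 12835545, and the genes span 486, 2305 and 351 kb in that order. TRDMT1 itself spans 59801 bases, and the part of gene length was not tested. Nearest to DNMT3B were ANKS6, PLEKHH3 and GNG7 (0.026 to 0.040), and nearest to DNMT3A were MTURN, STARD4 and POU4F1 (0.013 to 0.019). DNMT1 was nearest to TIMM44, AQR and NBPF12 (0.012 to 0.016), and UHRF1 to MAX, CYFIP1 and SMPD4BP (0.010 to 0.014). With 6 libraries and so many features, near profiles arise easily.

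Genes of methyltransferase partners and regulators moved in both directions at 8 h. Of 18 listed genes 16 were tested, and 4 were called higher and 4 lower at 8 h against caged cells, where 28.1% of all features were called. Their median log2 fold change was 0.010, against -0.0046 over all features. USP7, the deubiquitinase that stabilises DNMT1 and UHRF1, had 269 and 270 CPM at 8 h, against 210 and 210 CPM in caged cells. USP7 rose by 0.36 ± 0.046 (adjusted p = 0.00158) and passed in each of the 18 other settings and fits without a library. PCNA, the sliding clamp to which DNMT1 binds, had 411 and 430 CPM at 8 h, against 327 and 349 CPM in caged cells. PCNA rose by 0.32 ± 0.051 (adjusted p = 0.00364), with 0.088 and no call under cyclic loess offsets. The ligase gene LIG1, whose product binds UHRF1 when methylated, rose by 0.23 ± 0.051 (adjusted p = 0.0129). The LIG1 call held in 13 of 18 other fits and was lost with library totals (0.13, adjusted p = 0.0992), under cyclic loess offsets (0.095, adjusted p = 0.226), without either caged library and without uncaged 8 h replicate 1 (adjusted p = 0.0557 to 0.0719). The acetyltransferase gene KAT5 rose by 0.34 ± 0.060 (adjusted p = 0.00554) and passed in all 18. The lysine methyltransferase gene SETD7, known to mark DNMT1 for breakdown, fell by 0.21 ± 0.057 (adjusted p = 0.0246). The SETD7 call was lost without any one of the 4 compared libraries (adjusted p = 0.0528 to 0.113) and with length and GC offsets (-0.13).

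The other called genes on that list were the HELLS partner gene CDCA7, its relative CDCA7L and ZBTB24, a zinc finger gene known to activate CDCA7, all lower. With DNMT3B and HELLS, CDCA7 and ZBTB24 are the genes mutated in the ICF immunodeficiency syndrome, in which satellite DNA loses methylation. CDCA7 had 127 and 126 CPM at 8 h, against 157 and 149 CPM in caged cells, and 159 and 161 CPM at 4 h. CDCA7 fell by 0.27 ± 0.054 at 8 h against caged cells (adjusted p = 0.00789) and by 0.34 ± 0.054 against 4 h (adjusted p = 0.0257), and lost the call against caged cells in 1 of 18 other fits, without caged 0 h replicate 1 (adjusted p = 0.0536). Against 4 h the CDCA7 call was lost in 5 of 18, without a low-count filter (adjusted p = 0.0597) and without any one of the 4 compared libraries (adjusted p = 0.0708 to 0.150). CDCA7L had 39.6 and 37.8 CPM at 8 h, against 49.5 and 47.1 CPM in caged cells (-0.32 ± 0.069, adjusted p = 0.0112), and lost its call in 2 of 18 other fits, without caged 0 h replicate 1 (adjusted p = 0.0709) and without uncaged 8 h replicate 2 (adjusted p = 0.0613). ZBTB24 had 33.4 and 32.3 CPM at 8 h, against 37.2 and 44.4 CPM in caged cells (-0.31 ± 0.10, adjusted p = 0.0480), and kept its call in 7 of 18 other fits. CDCA7L, ZBTB24, LIG1 and SETD7 were singled out at 8 h after their values were seen. Of the 4 ICF genes DNMT3B, CDCA7 and ZBTB24 were called lower at 8 h, where 13.2% of all features were called lower. HELLS was not called and stood in the other direction, at 0.21 ± 0.078. No list of ICF genes was set beforehand, and they were grouped with CDCA7 and ZBTB24 already seen to be called lower. Their calls can therefore not be weighed against the share of all features. These genes were not tested as a set.

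**Figure D4:**
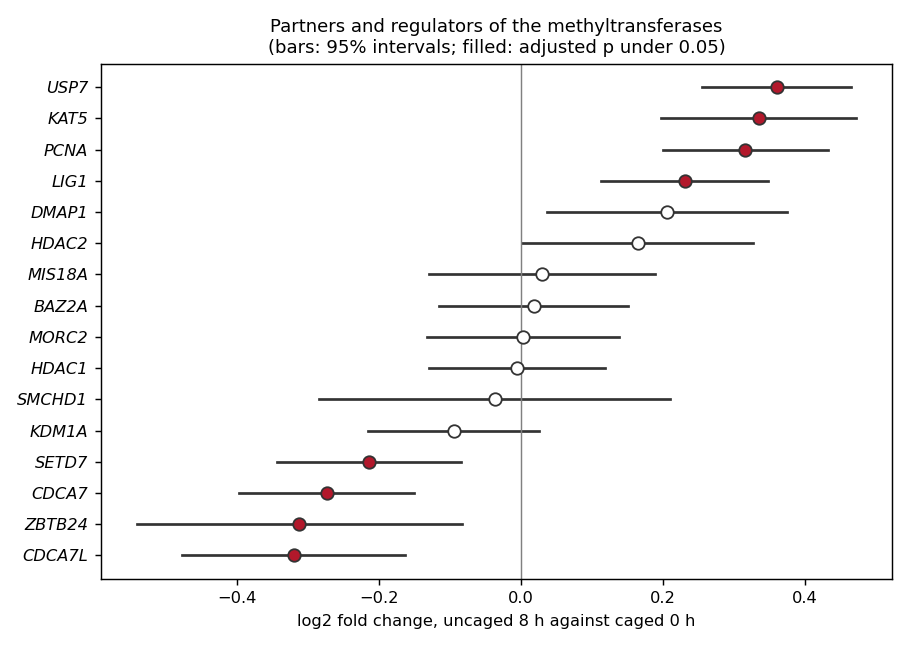
Log2 fold change at 8 h against caged 0 h (x axis) of the 16 tested partners and regulators, with 95% intervals; filled points passed an adjusted p of 0.05 over all features. USP7, KAT5, PCNA and LIG1 stand at 0.23 to 0.36, and SETD7, CDCA7, ZBTB24 and CDCA7L at -0.32 to -0.21.

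At 4 h the partner list held 2 higher and 0 lower of 16, where 9.72% of all features were called. USP7 rose by 0.26 ± 0.046 (adjusted p = 0.0132) and LIG1 by 0.28 ± 0.051 (adjusted p = 0.0147). Both calls were lost in 6 of 18 other fits: under cyclic loess offsets (0.14 for USP7 and 0.19 for LIG1), without a low-count filter and without any one of the 4 compared libraries (adjusted p = 0.0659 to 0.118). Between 8 h and 4 h CDCA7 was the only one of the 16 called, lower. DPPA3, which in mouse keeps UHRF1 off chromatin, had at most 3.68 counts in any library.

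Among H3K9 and heterochromatin partners, whose histone mark UHRF1 reads, 4 were higher and 2 lower of 15 at 4 h, which is 40.0% against 9.72% of all features, and 6 higher and 1 lower at 8 h, which is 46.7% against 28.1%. The H3K9 methyltransferase gene SUV39H1 rose at both times, with 0.46 ± 0.068 at 4 h (adjusted p = 0.00680) and 0.49 ± 0.068 at 8 h (adjusted p = 0.00207). TRIM28, a corepressor gene, rose by 0.26 ± 0.052 and 0.30 ± 0.052, and SETDB1 by 0.29 ± 0.058 and 0.27 ± 0.058. ATF7IP, the cofactor of SETDB1, rose by 0.24 ± 0.058 and 0.55 ± 0.058. Against these, the HP1 gene CBX1 fell by 0.24 ± 0.054 and 0.22 ± 0.055, and MPHOSPH8 fell by 0.47 ± 0.099 at 4 h. At 8 h MPHOSPH8 stood at -0.15 ± 0.097 and was not called (adjusted p = 0.275). Also called higher at 8 h were PPHLN1 (0.33 ± 0.067, adjusted p = 0.00904) and TASOR (0.20 ± 0.057, adjusted p = 0.0332). Other fits are not given for PPHLN1 and TASOR. At 8 h ATF7IP and SUV39H1 passed in all 18 other fits, TRIM28 in 17 (0.022 and no call under cyclic loess offsets), SETDB1 in 15 and CBX1 in 14. At 4 h SUV39H1 passed in 15, MPHOSPH8 in 14, TRIM28 and CBX1 in 13, SETDB1 in 12 and ATF7IP in 8. Without any one of the 4 compared libraries the 4 h calls of ATF7IP, CBX1, MPHOSPH8 and SETDB1 were lost, and with a replicate block ATF7IP and CBX1 had adjusted p of 0.0547 and 0.0544 there. CBX1 and TASOR were singled out after their values were seen. The list's median was 0.082 at 4 h and 0.13 at 8 h. The shares called in the lists were not tested and were not set beside those of features of similar level.

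Of 17 genes for histone mark writers and readers that guide de novo methylation, 6 were higher and 0 lower at 4 h, which is 35.3% against 9.72% of all features, and 5 higher and 0 lower at 8 h, which is 29.4% against 28.1%. The list's median was 0.13 at 4 h and 0.16 at 8 h. KMT2D, an H3K4 methyltransferase gene, rose by 0.65 ± 0.12 at 4 h (adjusted p = 0.0160). At 8 h KMT2D stood at 0.37 ± 0.12 and was not called (adjusted p = 0.0526), with a call in 6 of 18 other fits. KDM5C rose by 0.34 ± 0.062 at 4 h (adjusted p = 0.0143) and was not called at 8 h (0.18 ± 0.062, adjusted p = 0.0597). KDM5B rose by 0.16 ± 0.050 at 8 h (adjusted p = 0.0450). Other fits are not given for KDM5C and KDM5B. EZH2, the Polycomb H3K27 methyltransferase gene, rose by 0.27 ± 0.049 at 8 h (adjusted p = 0.00612). The CpG-binding demethylase gene KDM2A rose by 0.31 ± 0.069 at both times. The KMT2D call at 4 h was lost without caged 0 h replicate 2 (0.48) and without uncaged 4 h replicate 2 (0.53), and that of EZH2 at 8 h under cyclic loess offsets (0.065). KDM2A passed in 11 of 18 other fits at 4 h, with an adjusted p of 0.0552 under a replicate block, and in 13 at 8 h. At 8 h DNMT3A and DNMT3B were called lower and none of these 17 was, where 13.2% of all features were called lower. Whether the 17 differ from that share was not tested.

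DNMT1, UHRF1 and HELLS are known to peak in S phase, so S phase and G1/S genes were set beside them. Of 51 such genes 17 were higher and 0 lower at 4 h, which is 33.3% against 9.72% of all features, and 23 higher and 0 lower at 8 h, which is 45.1% against 28.1%, with a median log2 fold change of 0.14 and 0.13. Their summed level was 11567 and 11572 CPM at 4 h and 11590 and 11653 CPM at 8 h, against 10044 and 10061 CPM in caged cells. E2F8, a member of the E2F family, rose by 0.54 ± 0.075 at 4 h and 0.68 ± 0.075 at 8 h. The uracil glycosylase gene UNG rose by 0.51 ± 0.054 and 0.50 ± 0.054. UNG passed in all 18 other fits at both times, and E2F8 in 18 at 8 h and in 17 at 4 h, not without uncaged 4 h replicate 2 (adjusted p = 0.0610). DNMT1 at 0.20, UHRF1 at 0.24 and HELLS at 0.21 (not called) stood above the list's median of 0.13 at 8 h. At 4 h DNMT1 at 0.15 (not called) and UHRF1 at 0.27 stood above its median of 0.14. HELLS stood below it there, at -0.041 (not called). These differences were not tested. Under cyclic loess offsets the list held 8 called genes at 4 h and 11 at 8 h. The part of cell cycle position in the levels of DNMT1, UHRF1 and HELLS was not tested.

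**Figure D5:**
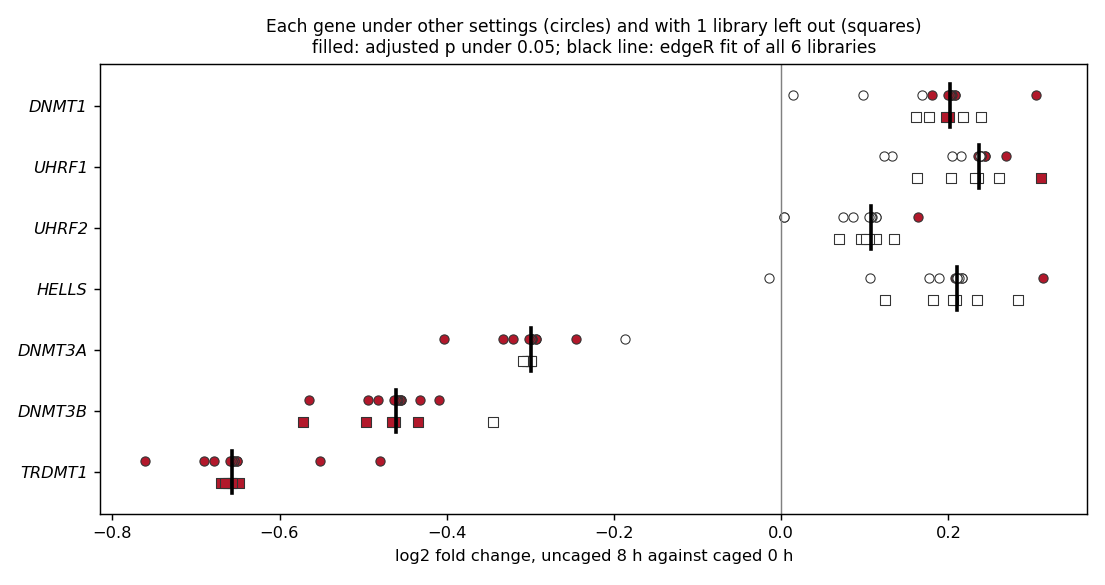
Log2 fold change at 8 h against caged 0 h (x axis) of each gene under 12 other settings (circles) and with 1 of the 6 libraries left out (squares); filled points passed an adjusted p of 0.05 and the black line is the edgeR fit of all libraries. TRDMT1 is filled throughout (-0.76 to -0.48), while DNMT1 spans 0.014 to 0.30 with open points among the circles and squares.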

How the data were processed

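Messenger RNA of sorted HEK293T cells was sequenced in 6 libraries. The authors deposited a table of estimated counts per gene, many of them fractional and none normalised. Salmon 1.1.0, R 3.6.1, DESeq2 and GRCh38 are named, without roles, per the submitters' processing notes. The strand setting and transcript annotation were not given in the sources used here. Libraries held 17490010 to 20025955 counts. The chi-square of replicate pairs over its degrees of freedom was 3.65 to 4.31, above sampling noise, so each library counted as 1 sample. Counts were rounded, 5 plasmid features left out, features filtered with filterByExpr (minimum count 10, total 15), and scaled by TMM. The fit used edgeR 4.0.16 under R 4.3.3 (quasi-likelihood, legacy=TRUE, all 6 libraries, no covariates). The fit was tested on simulated data. SEs are the fold change over the square root of F. Alternatives were RLE, upper-quartile, total-count, cyclic loess, and length and GC scaling (98.9% of tested features had both values), DESeq2 1.42.0, limma-voom 3.58.1, other filters, robust=TRUE, a replicate block, the 4 compared libraries alone and each library left out, 18 other fits in all. The genes and lists were chosen with earlier results of these data known. The 7 genes and TET2 are always named. Called genes of the other lists were drawn from the 4 of smallest p in each comparison, except those said to be singled out. Not all genes within that rule are named. Among S phase and G1/S genes it also held MCM6, MCM5 and MCM2 at 4 h and GINS3 and TIPIN at 8 h, all higher. The 3 nearest profiles are named for each called gene.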

Additional observations from a re-analysis of the deposited data

Results flagged for a closer look

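TRDMT1 differed between its effects at 8 h and at 4 h, as the step from 4 h to 8 h passed the test. The log2 fold change of that step was -0.532, with 10.5 and 10.6 CPM at 8 h, against 16.4 and 14.1 CPM at 4 h, lower in 2 of 2 libraries. Its adjusted p with edgeR was 0.0462, and over the 12 other settings it ran from 0.0274 to 0.111. Without uncaged 4 h replicate 1 the step was -0.42 (adjusted p = 0.200) and without uncaged 4 h replicate 2 it was -0.63 (adjusted p = 0.123).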

How the results depend on the processing

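Of 378 fold changes of the 7 genes recomputed under other settings or without 1 library, 315 kept their direction and side of the threshold, 47 lost a call, 8 gained one and 8 changed sign. No value past the test changed sign. HELLS at 4 h turned to 0.0535 with length and GC offsets and ran from -0.150 to 0.0516 without 1 library, positive without uncaged 4 h replicate 2, and at 8 h to -0.0142 under cyclic loess. The step of DNMT1 turned to -0.00365 with library totals and to -0.0151 under cyclic loess. The step of UHRF1 turned to 0.0358 with length and GC offsets, and ran from -0.0797 to 0.0180 without 1 library, positive without uncaged 4 h replicate 2 (0.0180) or uncaged 8 h replicate 2 (0.000151). The cause was not tested.

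Of the 7 genes, 1 was called at 4 h, and 0 with upper-quartile factors, library totals, cyclic loess, no filter, a replicate block and the 4 compared libraries alone, and 2 with length and GC offsets. At 8 h 5 were called, and 3 with library totals, cyclic loess and no filter. In the step 1 was called, and 0 with cyclic loess, limma-voom, no filter, a replicate block and the 4 compared libraries, and 3 with length and GC offsets. DESeq2 called HELLS there in place of TRDMT1. Any difference was called for 4, and for 2 with cyclic loess, no filter and a replicate block. Leaving out 1 library gave 0 to 0 at 4 h, 2 to 4 at 8 h, 0 to 0 for the step and 1 to 3 for any difference. The lone library of a group was assumed to vary like the other groups.

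Reading the list counts and the named list genes under these settings was chosen after seeing the data. Partners went to 0 of 2 at 4 h with cyclic loess or no filter, and in the step from 1 to 0 with no filter, 2 with length and GC offsets or robust=TRUE and 3 with DESeq2. H3K9 partners went from 6 to 3 at 4 h with cyclic loess or no filter, and in the step from 1 to 2 with library totals or length and GC offsets and to 0 with no filter or a replicate block. Histone mark genes went from 6 at 4 h to 2 with library totals, no filter or a replicate block and to 1 with cyclic loess. At 8 h they went from 5 to 3 with upper-quartile factors or the 4 libraries, 1 with library totals or cyclic loess, 2 with no filter and 13 with length and GC offsets. In their step 0 became 1 with library totals, 2 with length and GC offsets or robust=TRUE and 3 with DESeq2. S-phase genes went from 17 to 8 and 11 at 4 h with cyclic loess and no filter, from 23 to 11 at 8 h with cyclic loess, and in the step from 0 to 1 with cyclic loess and 2 with DESeq2 or robust=TRUE. Without 1 library partners gave 0 to 2, 4 to 7 and 0 to 1 in the 3 comparisons, H3K9 partners 0 to 5, 3 to 7 and 0 to 0, histone mark genes 0 to 6, 1 to 4 and 0 to 0, and S-phase genes 3 to 17, 17 to 20 and 0 to 0.

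The labels do not say that replicate numbers pair libraries. Deviations of same-numbered libraries correlated at -0.21 (4 h and caged), 0.27 (8 h and caged) and -0.38 (8 h and 4 h), so the numbers were not taken as pairs. Exchanging the numbers at 4 h would make both negative values positive. A pairing with those numbers crossed was not tested, and the replicate block used the numbers as labelled. All features called under the replicate block were 1039 at 4 h in place of 1696, 4407 at 8 h in place of 4908 and 193 in the step in place of 570. Without a low-count filter they were 711, 3391 and 53, and with length and GC offsets 2636, 5875 and 1136. A count of 0 allows 0.170 to 0.201 CPM, for counting error only.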
